A study of Mus musculus with 40 samples.

Results

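Whole mouse tissues, liver and the tibialis muscle of the leg, were compared spot by spot on nylon filter arrays. The comparison takes the 2 samples titled as liver and the 2 titled as tibialis isolated muscle, 4 of the 40 samples in the series, and subtracts muscle from liver. Each array measured 1 RNA sample over 5760 spots, of which 3346 could be paired with a current gene symbol. Both tissues were taken mechanically, and total RNA treated with DNase was copied into radioactively labelled cDNA for hybridization. Of strain, sex, age and pooling of animals the labels used here say nothing, and no treatment or genetic change is named for either tissue. The labels do not say whether samples of a tissue came from separate animals; p-values therefore cover only the variation among the arrays at hand, part or all of which can be technical. The level against which each tissue is placed below is the mean of 11 other groups. Muscle cells were among them, as proliferating C2C12 myoblasts and C2C12 myotubes at day 7. From fat or fat cell lines came preadipocyte lines, 3T3-F442A adipocytes at day 7, and adipocytes and stroma-vascular cells of inguinal fat. The rest were peritoneal macrophages, the macrophage lines Raw 264 and J774, C3H mesenchymal cells, and undifferentiated embryonic stem cells with LIF.

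The liver makes most of the proteins of blood plasma, among them apolipoproteins, carriers and clotting factors, and it clears foreign compounds with oxidizing and conjugating enzymes. Skeletal muscle is built of sarcomeres, in which myosin and actin filaments slide past each other when calcium is released from the sarcoplasmic reticulum, and relaxes when a calcium pump takes it back. The tibialis anterior of the mouse is a fast muscle, a kind of muscle known for breaking down its own glycogen through glycolysis.

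The liver arrays were dimmer and less alike than the muscle arrays. Their median deposited intensities were 32480 and 18870.5, against 94790 and 130888 for muscle, so that the median spot was at -2.2 (log2, liver minus tibialis) before the arrays were scaled to each other and at -0.01 in the fit afterwards. The Pearson correlation of log2 values across spots was 0.817 between the liver samples and 0.949 between the muscle samples. Liver 2 correlated with the muscle arrays at 0.876 and 0.858, above its correlation with liver 1. The root mean square of the within-group SD was 0.285 (log2) in liver, the largest of the 14 groups, and 0.15 in tibialis. SEs and p-values below rest on the spread pooled over all groups, which is smaller than the spread between the liver samples.

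**Figure D1:**
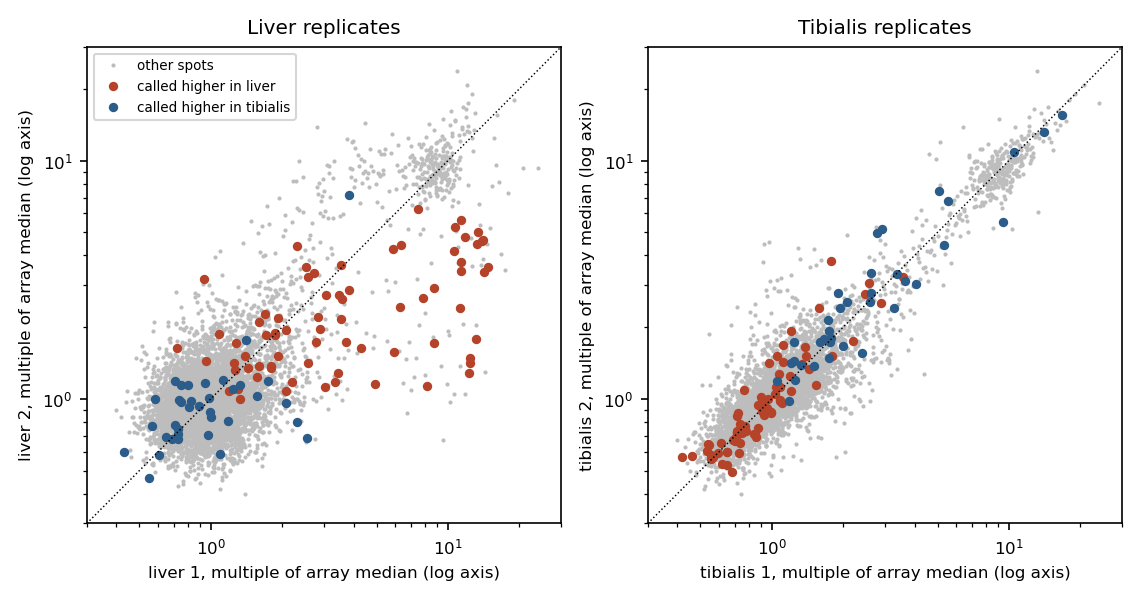
Normalized intensity of each spot in the 2 samples of liver (left) and of tibialis (right), as multiples of the array median on log axes; 1 point is 1 spot, coloured points are spots called at an adjusted p under 0.05 and the dotted line marks equal values. The cloud is wider for liver (correlation 0.817) than for tibialis (0.949), and most red points lie below the line in liver, where liver 1 is the brighter sample.

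In all, 108 of the 5760 spots differed between liver and tibialis at an adjusted p under 0.05 (limma, Benjamini-Hochberg; 1.88% of spots). Of these, 72 were higher in liver (1.25%) and 36 were higher in tibialis (0.625%). Spots that passed are said to be called. Among spots with a single named gene, clone names left out, 47 were called higher in liver (1.45% of 3242 such spots) and 25 higher in tibialis (0.771%). In 46 and 25 of these the values of the tissues did not overlap; over all spots, 22.6% had both liver values above both tibialis values and 23.1% had them below. The exception was Cfap36, a cilia and flagella gene, with 11.4 and 3.75 in liver and 1.77 and 3.8 in tibialis. Values given sample by sample are normalized intensities in multiples of the array's median spot, in the order 1 and 2, and each difference is a log2 value, liver minus tibialis, ± SE from the fit. That log2 scale carries an added offset, so it understates the ratio of dim spots. Each tissue is a mixture of cells, in which fewer cells of a type and less RNA per cell cannot be told apart.

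The number of calls moved with single samples and with the scaling. It was 116 higher and 83 lower without liver 2, 27 and 21 without tibialis 1, and 32 and 20 without tibialis 2, where the lone remaining sample was taken to vary like the other groups. With each array scaled only to a common median it was 11 higher and 7 lower, and in a limma fit of the 4 arrays alone it was 0 and 2, with 618 spots at an unadjusted p under 0.05 against 868 in the fit of all groups. Of the named genes, 7 higher in liver and 6 higher in tibialis were called in each of the 4 fits without 1 sample and under each of the 11 alternatives in processing that kept other groups in the fit, or under 10 where the gene was too dim for 1 of them. These were Mgst1, Apoc1, Rbp4, Selenop, Scp2, Cyp2c67 and Cp in liver, and Myl1, Atp2a1, Aldoa, Pygm, Cdca7l and Eno3 in tibialis.

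**Figure D2:**
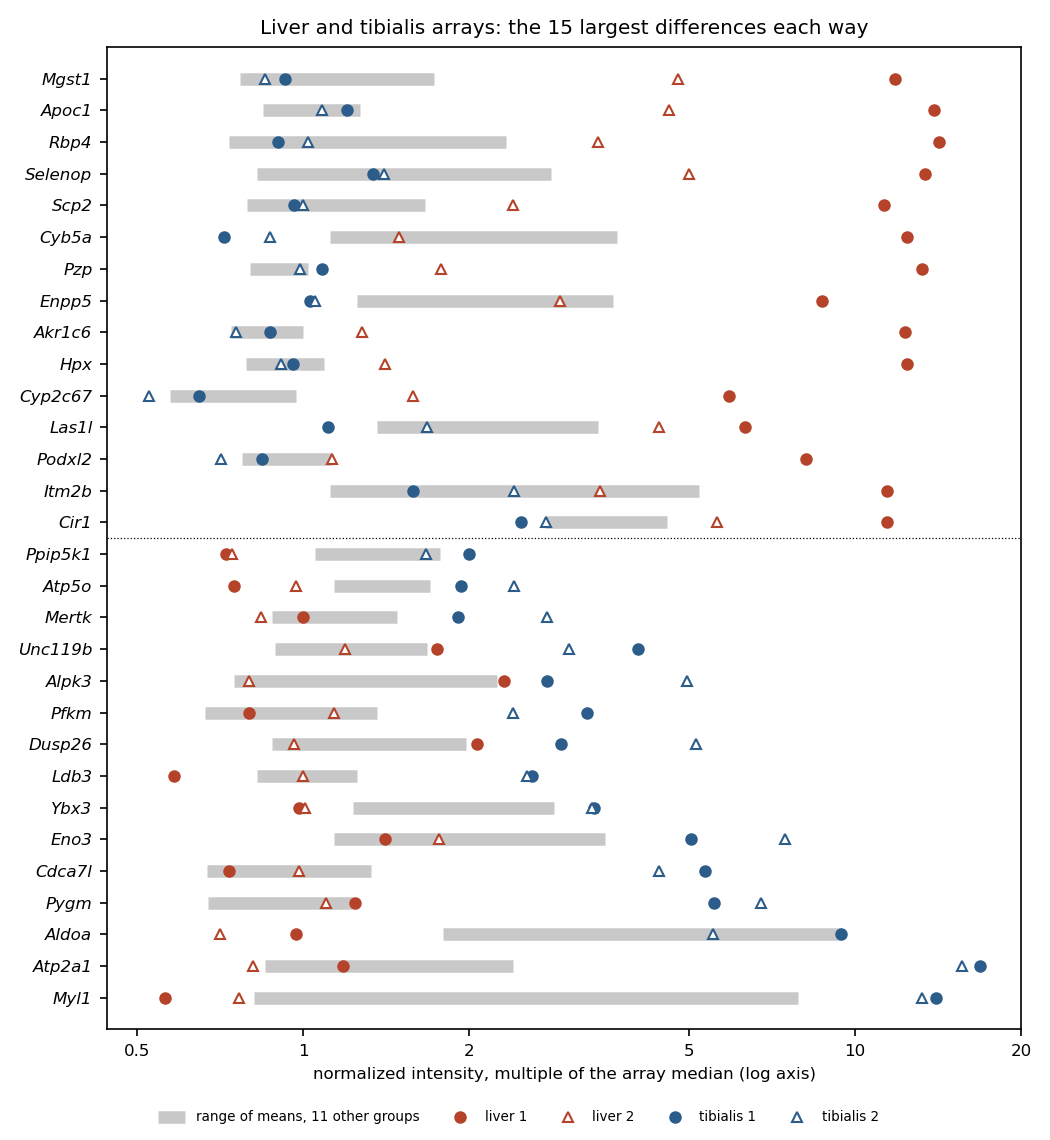
Normalized intensity in each liver and tibialis sample for the 15 named genes with the largest difference each way, as multiples of the array median on a log axis; grey bars span the means of the 11 other groups. The dotted line parts genes higher in liver (above) from genes higher in tibialis (below), and liver 1 exceeds liver 2 in each of the 15 upper genes.

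Genes for plasma proteins were higher in liver. Of 15 measured members, 10 were called higher and 0 lower, with a median difference of 1.11 against -0.01 over all spots. Their summed level was 104 and 37.2 array medians in liver and 18.2 and 17.3 in tibialis. Liver 1 was brighter than liver 2 for 13 of the 15, and of the 10 calls 5 were kept without liver 1, 10 without liver 2, and 6 without either of the tibialis samples. The list was drawn up with earlier results on Apoc1, Rbp4, Hpx and Fgb known. Beside this and each later list count stand the shares over all spots, 1.25% called higher and 0.625% called lower. Members of every list were chosen with earlier results of these data known, so no list count is an independent test.

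The lipid and vitamin carriers of plasma came first. Apoc1, an apolipoprotein of triglyceride-rich particles and HDL, measured 13.9 and 4.61 in liver and 1.2 and 1.08 in tibialis. Both liver values lay well above both muscle values and above the highest mean of the 11 other groups, 1.27. The difference was 2.26 ± 0.23 (adjusted p = 4.04e-08). Rbp4, which carries retinol in blood, measured 14.2 and 3.42 in liver and 0.902 and 1.02 in tibialis, a difference of 2.24 ± 0.30 (adjusted p = 6.71e-06). Muscle was at the level of the median spot, and liver 2 was far below liver 1 but above both muscle samples. Apoa5, an apolipoprotein that promotes the clearing of triglyceride, was dimmer but even between samples, with 2.07 and 1.95 in liver and 0.555 and 0.56 in tibialis. Its difference was 1.11 ± 0.19 (adjusted p = 0.000616), and it lay between 1.08 and 1.15 in the 4 fits without 1 sample.

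Apoa5 is shown with its promoter because its liver samples agree closely. RefSeq (GRCm38.p6) places a window of 250 bases before to 50 bases after its start at chr9:46268358-46268657, plus strand. The capitals mark CAGCTG at position -110 and TATAAA at position -31, counted from this start. For another RefSeq start, with a window at chr9:46268383-46268682, the same matches lie at -135 and -56.
Apoa5: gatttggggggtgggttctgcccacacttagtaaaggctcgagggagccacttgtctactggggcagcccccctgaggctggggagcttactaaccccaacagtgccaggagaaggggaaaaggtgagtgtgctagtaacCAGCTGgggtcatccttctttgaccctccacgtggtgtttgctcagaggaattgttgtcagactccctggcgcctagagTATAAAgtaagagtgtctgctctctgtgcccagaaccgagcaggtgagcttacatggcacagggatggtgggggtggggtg

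Metal and haem carriers followed. Selenop, which carries selenium from liver to other organs, measured 13.4 and 5.01 in liver and 1.34 and 1.4 in tibialis, a difference of 2.12 ± 0.27 (adjusted p = 4.11e-06). Peritoneal macrophages held the highest mean of the other groups at 2.81, below both liver samples. Cp, the copper-carrying ferroxidase ceruloplasmin, measured 2.52 and 3.59 in liver and 0.912 and 0.886 in tibialis. Here liver 2 was the higher sample, and the difference of 1.22 ± 0.18 (adjusted p = 4.22e-05) was 1.43 without liver 1 and 1.01 without liver 2. Hpx, which binds free haem, measured 12.4 and 1.41 in liver and 0.958 and 0.912 in tibialis, a difference of 1.69 ± 0.36 (adjusted p = 0.00724). The difference was 0.37 without liver 1 and 3.00 without liver 2, and of the 4 fits without 1 sample only the one without liver 2 called it.

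Among protease inhibitors, clotting factors and binding proteins the liver samples also lay apart. Pzp, an inhibitor of the alpha-2-macroglobulin family, measured 13.2 and 1.78 in liver and 1.08 and 0.986 in tibialis, a difference of 1.77 ± 0.34 (adjusted p = 0.00177). Without liver 1 it was 0.52 and not called (adjusted p = 0.083). Fgb, the fibrinogen beta chain, measured 14 and 4.65 in liver and 2.89 and 2.53 in tibialis, a difference of 1.38 ± 0.30 (adjusted p = 0.00858). It was 0.65 without liver 1 and 2.11 without liver 2, and of the 4 fits without 1 sample only the one without liver 2 called it, which also holds for Igfbp4 and Itih2. Fgb stood above the mean of the other groups in both tissues, by 2.25 in liver (adjusted p = 1.12e-08) and by 0.87 in tibialis (adjusted p = 0.0309). Igfbp4, which binds insulin-like growth factors, had a difference of 1.00 ± 0.27 (adjusted p = 0.0405), and it was 0.42 without liver 1. Itih2, a hyaluronan-binding heavy chain of the inter-alpha inhibitor, measured 4.93 and 1.15 in liver and 1.04 and 1.12 in tibialis. Liver 2 was thus barely above muscle, and the difference of 0.86 ± 0.23 (adjusted p = 0.045) was 0.05 without liver 1 and 1.67 without liver 2.

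The other plasma protein genes were not called. Proc, the anticoagulant protein C, measured 1.97 and 1.46 in liver and 1.36 and 0.989 in tibialis, with a difference of 0.36 ± 0.14 (adjusted p = 0.201). The clotting factor gene F7 and the complement genes C2 and Masp1 had differences of 0.23, 0.22 and 0.28. Ttr, the thyroid hormone carrier transthyretin and one of the best known liver transcripts, measured 1.5 and 1.13 in liver and 1.24 and 1.2 in tibialis. Its tissues overlapped, near the median spot in all 4 samples, with a difference of 0.07 ± 0.14. Pon1 and Spp2, which encode secreted proteins but were not in the list, were called. Pon1, the paraoxonase of HDL, measured 3.72 and 1.74 in liver and 0.593 and 0.594 in tibialis, a difference of 1.35 ± 0.21 (adjusted p = 0.000123) that was called in all 4 fits without 1 sample.

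**Figure D3:**
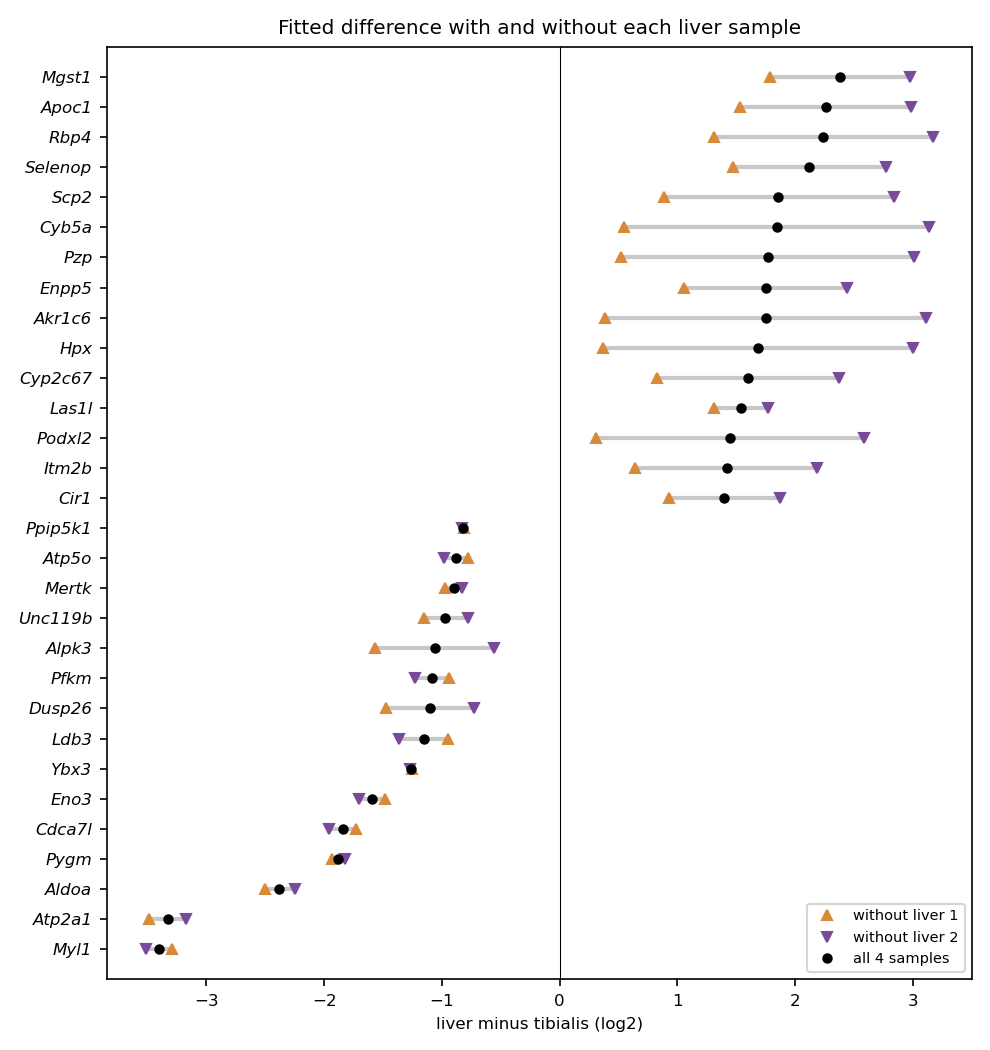
Fitted log2 difference, liver minus tibialis, for the same 30 genes with all 4 samples (black), without liver 1 (orange) and without liver 2 (purple). Genes higher in liver spread from 0.37 to 3.00 for Hpx, while Myl1 stays between -3.51 and -3.29.

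Genes of detoxification and redox chemistry were higher in liver for a part of the list. Of 14 measured members, 5 were called higher and 0 lower, with a median of 0.29, and of the 5 calls 1 was kept without liver 1 (Mgst1), 5 without liver 2, 3 without tibialis 1 and 4 without tibialis 2. Mgst1, a membrane-bound glutathione transferase, had the largest rise of all named genes, with 11.8 and 4.77 in liver and 0.929 and 0.852 in tibialis. Both liver values exceeded the highest mean of the other groups, 1.73 in 3T3-F442A adipocytes. The difference was 2.38 ± 0.21 (adjusted p = 1.54e-09). Cyb5a, the cytochrome b5 that passes electrons to cytochrome P450 enzymes, measured 12.4 and 1.49 in liver and 0.72 and 0.871 in tibialis, a difference of 1.85 ± 0.39 (adjusted p = 0.00538). Its liver 2 value lay inside the range of the other groups' means, 1.12 to 3.71, and without liver 1 the difference was 0.55. Akr1c6, an aldo-keto reductase that acts on steroids, measured 12.3 and 1.28 in liver and 0.871 and 0.756 in tibialis, a difference of 1.75 ± 0.37 (adjusted p = 0.00577). It was 0.39 without liver 1 and 3.11 without liver 2, and it too was called only in the one of these 4 fits that left out liver 2.

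The cytochrome P450 genes differed among themselves. Cyp2c67, a drug and fatty acid oxidase that the list does not hold, measured 5.92 and 1.58 in liver and 0.649 and 0.525 in tibialis, a difference of 1.60 ± 0.25 (adjusted p = 0.000109). Cyp2d9, known as a male-biased steroid hydroxylase of mouse liver, measured 2.77 and 1.74 in liver and 0.705 and 0.69 in tibialis, a difference of 1.06 ± 0.20 (adjusted p = 0.00154). Liver exceeded muscle in both samples of either gene. Cyp2e1, the ethanol-oxidizing enzyme and an abundant liver transcript, measured 3.26 and 3.06 in liver and 2.13 and 2.42 in tibialis. Its difference of 0.38 ± 0.44 was not called, and J774 macrophages held a higher mean at 12.8. Cyp27a1, Cyp4a14 and Cyp51 had differences of -0.24, 0.20 and 0.15, none called. Cyp2c67, Cyp2d9, Akr1c6 and Rdh7 belong to families of closely similar genes, which the spots may not tell apart.

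Other members of the list were an aldehyde dehydrogenase, further glutathione transferases and a metallothionein. Aldh7a1, an aldehyde dehydrogenase of lysine breakdown, measured 3.55 and 2.16 in liver and 1.08 and 1.12 in tibialis, a difference of 0.96 ± 0.18 (adjusted p = 0.00216). Gstz1, a glutathione transferase of tyrosine breakdown, measured 2.02 and 1.57 against 0.655 and 0.973, and its difference of 0.73 ± 0.20 missed the threshold (adjusted p = 0.0526). Gstk1, a mitochondrial and peroxisomal relative, had -0.43 ± 0.20 (adjusted p = 0.303). The metallothionein gene Mt1 was dim in both tissues, between 0.911 and 0.975 in the 4 samples. It lay below the mean of the other groups by -1.05 in liver (adjusted p = 0.0128) and by -1.02 in tibialis (adjusted p = 0.0291).

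Of 16 measured genes of liver intermediary metabolism, 3 were called higher and 0 lower, with a median of 0.02; without liver 1 the call of Scp2 was the 1 kept. Scp2, the sterol carrier and peroxisomal thiolase, measured 11.3 and 2.4 in liver and 0.961 and 1.00 in tibialis, a difference of 1.86 ± 0.30 (adjusted p = 0.000178). Liver 1 was far brighter than liver 2, and both exceeded the other groups, whose highest mean was 1.66. Rdh7, a retinol dehydrogenase, had 0.82 ± 0.15 (adjusted p = 0.00124), and Qdpr, which regenerates the cofactor of phenylalanine hydroxylase, had 0.73 ± 0.18 (adjusted p = 0.0258). Glul, glutamine synthetase, measured 1.84 and 1.07 in liver and 0.787 and 0.756 in tibialis and was not called at 0.53 ± 0.18 (adjusted p = 0.121). The amino acid and methyl transfer genes Gpt, Gamt and Gnmt had -0.32, -0.29 and 0.33, with adjusted p from 0.281 to 0.42.

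A pair of genes of this list stood above the mean of the other groups in both tissues. Fdps, the farnesyl diphosphate synthase of cholesterol synthesis, measured 12.5 and 4.72 in liver and 6.39 and 13.9 in tibialis. The tissues overlapped, and the difference was -0.26 ± 0.35, while against the mean of the 11 other groups liver was at 1.53 (adjusted p = 0.00018) and tibialis at 1.79 (adjusted p = 3.5e-05). Kmo, kynurenine 3-monooxygenase of tryptophan breakdown, measured 6.25 and 1.59 in liver and 3.12 and 3.55 in tibialis. It was 0.76 above the other groups in liver (adjusted p = 0.0194) and 0.77 in tibialis (adjusted p = 0.0326), and the tissues differed by -0.01 ± 0.27. For both genes liver 2 lay within the range of the other groups' means, which reached 5.18 for Fdps and 2.99 for Kmo.

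Fatty acid genes rose in liver for 2 of 9 measured members, with 0 lower and a median of -0.02, and without liver 1 or tibialis 1 only Slc27a2 was called. Slc27a2, which activates very long chain fatty acids and takes them up, measured 3.05 and 2.72 in liver and 0.872 and 0.941 in tibialis. The samples of each tissue were close, and the difference of 1.16 ± 0.13 (adjusted p = 4.61e-07) stayed between 1.09 and 1.23 without any of the 4 samples. Etfa, the electron transfer flavoprotein that serves mitochondrial beta-oxidation, measured 2.84 and 2.21 in liver and 1.11 and 1.43 in tibialis, a difference of 0.71 ± 0.15 (adjusted p = 0.00546). The lipases Lpl and Pnpla2, the lipid droplet gene Plin5 and Hadh of beta-oxidation had -0.24, -0.20, -0.19 and 0.21 and were not called.

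Other genes among the 15 largest rises were not in any list. Enpp5, a membrane phosphodiesterase, measured 8.7 and 2.92 in liver and 1.03 and 1.05 in tibialis, a difference of 1.75 ± 0.39 (adjusted p = 0.00969). Its liver 2 value was within the other groups' means, which reached 3.64 in Raw 264 macrophages. Las1l, of ribosomal RNA processing, measured 6.33 and 4.41 in liver and 1.11 and 1.68 in tibialis, a difference of 1.54 ± 0.30 (adjusted p = 0.0025). Podxl2, a sialomucin, measured 8.14 and 1.13 in liver and 0.843 and 0.711 in tibialis, a difference of 1.45 ± 0.35 (adjusted p = 0.0182) that was 0.31 without liver 1. The last pair was above the median spot in muscle as well. Itm2b, an integral membrane protein, measured 11.4 and 3.45 in liver and 1.58 and 2.41 in tibialis, a difference of 1.42 ± 0.32 (adjusted p = 0.00981). Cir1, a transcriptional corepressor, measured 11.4 and 5.61 in liver and 2.48 and 2.76 in tibialis, a difference of 1.40 ± 0.29 (adjusted p = 0.00538).

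The remaining named genes higher in liver had differences from 0.51 for Ybx2 to 1.23 for Spata5l1. Among enzymes were Rida, which disarms reactive imines made in amino acid breakdown (0.74 ± 0.13, called in all 4 fits without 1 sample), Idh1, the cytosolic isocitrate dehydrogenase (0.66 ± 0.15), Mtarc1, a mitochondrial reductase (0.71 ± 0.14), Chst11, a chondroitin sulfotransferase (0.77 ± 0.18), and Lars2, the mitochondrial leucyl-tRNA synthetase (0.78 ± 0.20). Lars2 ran against the usual order, with 0.936 and 3.2 in liver and 0.854 and 0.694 in tibialis. Without liver 1 its difference was 1.41 and without liver 2 it was 0.15. The copper pump gene Atp7a measured 7.5 and 6.25 in liver and 2.56 and 3.05 in tibialis, a difference of 1.11 ± 0.30 (adjusted p = 0.0457). Its liver samples agreed, yet it was called in 0 of the 4 fits without 1 sample. Irf2bp2, a corepressor, measured 10.7 and 5.26 in liver and 3.58 and 3.24 in tibialis, and like Fgb it was above the other groups in liver (1.83, adjusted p = 7.55e-08) and in tibialis (0.82, adjusted p = 0.0192). Rab5c, Ankrd27, Clip3, Pstpip1, Crebbp, Nol9, Marchf10, Cachd1 and Mab21l2 had differences between 0.55 and 0.90.

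Across the 46 named genes higher in liver, liver 1 exceeded liver 2 in 35, by a median of 0.54 (log2), whereas over all 5760 spots it did so in 2822, with a median of -0.01. In the same 46 genes the muscle samples differed from each other by a median of 0.07 in size. Of the 46 calls, 18 were kept without liver 1, 37 without liver 2, 17 without tibialis 1 and 22 without tibialis 2. In all 4 of these fits 11 were kept. Each of the other calls was lost in at least 1 of these fits, and most of them in 3 or all 4. Among those lost at least once were Cyp2d9, Aldh7a1, Rdh7, Cyb5a, Las1l, Itm2b, Cir1, Etfa, Enpp5, Podxl2, Qdpr and Irf2bp2. The cause of the difference between the liver samples was not tested. Hbb-b1, a haemoglobin gene of red cells and the 1 erythroid marker measured, moved the same way, with 10.1 and 1.86 in liver and 2.0 and 1.35 in tibialis. The tissues overlapped and the difference was 1.16 ± 0.32 (adjusted p = 0.0526).

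Of the 25 named genes higher in tibialis, 16, 16, 14 and 12 kept their call without liver 1, liver 2, tibialis 1 and tibialis 2. The calcium pump gene Atp2a1 and the sarcomere gene Myl1 stood far from all others. Myl1, the fast myosin alkali light chain, measured 0.563 and 0.767 in liver and 14 and 13.2 in tibialis, a difference of -3.40 ± 0.23 (adjusted p = 1.2e-12). Liver was below the median spot, and tibialis exceeded the highest mean of the other groups, 7.89 in C2C12 myotubes. Atp2a1, the fast-fibre pump that returns calcium to the sarcoplasmic reticulum, measured 1.18 and 0.811 in liver and 16.8 and 15.6 in tibialis, a difference of -3.33 ± 0.22 (adjusted p = 1.2e-12). The muscle samples were nearly equal, and the highest mean elsewhere was 2.4, again in C2C12 myotubes. In the fit of the 4 arrays alone these were the 2 genes called, with adjusted p of 0.0079 for Myl1 and 0.00878 for Atp2a1.

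Energy genes of muscle formed the next group. Of 11 measured genes of glycogen, glycolysis and phosphocreatine, 4 were called lower in liver and 0 higher, with a median of -0.18, and all 4 calls were kept in each of the 4 fits without 1 sample. Aldoa, the muscle form of the glycolytic enzyme aldolase, measured 0.971 and 0.708 in liver and 9.42 and 5.52 in tibialis, a difference of -2.38 ± 0.37 (adjusted p = 9.83e-05). Aldoa is made in many cells, and the other groups ranged from 1.79 to 9.41; liver lay below their mean by -1.43 (adjusted p = 0.000807), and tibialis was 0.95 above it (adjusted p = 0.0556). Pygm, the muscle glycogen phosphorylase, measured 1.24 and 1.1 in liver and 5.56 and 6.76 in tibialis, a difference of -1.88 ± 0.13 (adjusted p = 1.2e-12). No other group had a mean above 1.23. Eno3, the muscle enolase, measured 1.41 and 1.76 in liver and 5.05 and 7.46 in tibialis, a difference of -1.59 ± 0.23 (adjusted p = 3.08e-05), and Pfkm, the muscle phosphofructokinase, measured 0.799 and 1.14 in liver and 3.27 and 2.4 in tibialis, a difference of -1.08 ± 0.16 (adjusted p = 3.19e-05). Liver was near the median spot for Pfkm and above it for Eno3.

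Promoters of Myl1, Atp2a1 and Pygm are shown because these genes had the same adjusted p, the smallest of the comparison, and moved together. The windows run from 250 bases before to 50 bases after the RefSeq start (GRCm38.p6) and are written along the strand of the gene. They lie at chr1:66945007-66945306, minus strand, for Myl1, at chr7:126463024-126463323, minus strand, for Atp2a1, and at chr19:6384158-6384457, plus strand, for Pygm. Capitals mark matches to the motifs searched on both strands: CAGCTG (an E-box of the kind bound by MyoD family factors), TATAAA (the TATA box), CATTCC (the MCAT element), TGTTTAC (forkhead), GTTAAT (part of the HNF1 site) and CAAAGTCCA (the HNF4 site).
Myl1: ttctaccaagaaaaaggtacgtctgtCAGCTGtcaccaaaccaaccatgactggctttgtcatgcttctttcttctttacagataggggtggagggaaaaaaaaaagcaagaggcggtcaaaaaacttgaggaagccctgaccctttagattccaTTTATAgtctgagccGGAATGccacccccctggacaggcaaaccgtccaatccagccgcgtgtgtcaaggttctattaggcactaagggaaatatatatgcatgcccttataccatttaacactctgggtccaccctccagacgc
Atp2a1: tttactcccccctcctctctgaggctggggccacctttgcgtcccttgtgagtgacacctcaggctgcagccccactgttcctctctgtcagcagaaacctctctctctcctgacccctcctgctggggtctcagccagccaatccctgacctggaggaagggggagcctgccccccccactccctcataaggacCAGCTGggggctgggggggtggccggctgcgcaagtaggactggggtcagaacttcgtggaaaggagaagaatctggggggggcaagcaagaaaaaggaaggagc
Pygm: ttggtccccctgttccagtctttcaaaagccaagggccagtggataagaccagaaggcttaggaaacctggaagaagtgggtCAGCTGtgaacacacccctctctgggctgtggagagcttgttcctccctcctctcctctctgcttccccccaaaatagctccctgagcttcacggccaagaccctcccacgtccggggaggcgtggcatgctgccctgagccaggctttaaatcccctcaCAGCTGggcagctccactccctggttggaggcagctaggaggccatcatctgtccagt

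CAGCTG began at position -224 in Myl1, at -55 in Atp2a1, and at -168 and -8 in Pygm. On the other strand Myl1 also held TATAAA, read as TTTATA from position -95, and CATTCC, read as GGAATG from position -80. Over all named genes higher in tibialis, 20 of 25 had an entry, with 29 windows, and CAGCTG was found in 20.7% of them, against 15.1% of the 53 windows of 41 genes higher in liver and 16.3% of all 32851 windows. TATAAA was in 20.7%, 18.9% and 13.6% and CATTCC in 13.8%, 17.0% and 14.7%, in the same order. TGTTTAC was in 5.66% of liver windows and 3.65% of all, GTTAAT in 5.66% and 7.1%, and CAAAGTCCA in 1.89% and 0.475%. In liver these shares stand for 3, 3 and 1 of the 53 windows. The tibialis windows held none of these motifs, but 29 windows would hold few or none at the shares of all windows. Windows of 1 gene can overlap, as those of Apoa5 do, so that the same match is counted again. These are matches of letters within the windows, and the motifs were not tested as sites.

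The rest of the glycolytic and phosphocreatine genes were not called. Ckm, the muscle creatine kinase, measured 4.89 and 1.83 in liver and 4.77 and 4.72 in tibialis. Liver 1 was as bright as muscle, and the difference was -0.53 ± 0.27 (adjusted p = 0.354). The neighbouring spot in the deposited order, B2m of the class I histocompatibility complex, measured 11.8 in liver 1 and 1.05 in liver 2; whether it bears on Ckm was not tested. Against the 11 other groups Ckm was 1.21 higher in tibialis (adjusted p = 0.000321) and 0.68 higher in liver (adjusted p = 0.0419). Aldoc, Gys1, Pfkfb2, Pfkfb3, Pfkp and the lactate transporter gene Slc16a1 lay between -0.18 and 0.09.

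Of 13 measured sarcomere genes, 2 were called lower in liver and 0 higher, with a median of -0.14. Beside Myl1 this was Ldb3, which holds the Z-disc together, with 0.583 and 1.00 in liver and 2.6 and 2.55 in tibialis. Its difference was -1.15 ± 0.21 (adjusted p = 0.000984), and no other group had a mean above 1.25. Tnnc1 and Myl3 of slow and heart muscle were not called. Tnnc1, the slow and cardiac troponin C, measured 0.879 and 1.17 in liver and 1.04 and 1.58 in tibialis, with a difference of -0.22 ± 0.16. Myl3, the slow light chain, measured 0.868 and 1.08 in liver and 0.88 and 1.01 in tibialis. Csrp3, Capzb, Cfl2 and Capza2 had differences of 0.24, -0.18, -0.20 and -0.15, none called.

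Calcium handling and excitation genes were likewise called in 2 of 13 cases, both lower in liver, with a median of -0.09. Sypl2, the triad protein mitsugumin, measured 1.33 and 1.14 in liver and 2.07 and 2.56 in tibialis, a difference of -0.64 ± 0.17 (adjusted p = 0.0403), called in 0 of the 4 fits without 1 sample. Chrna1, the acetylcholine receptor alpha subunit of the motor endplate, measured 0.708 and 0.936 in liver and 1.53 and 1.52 in tibialis. All muscle values were higher, but -0.55 ± 0.17 was not called (adjusted p = 0.088). Stac3, an adaptor of the calcium channel that muscle needs for contraction, pointed the other way, with 1.93 and 1.71 in liver and 0.848 and 0.78 in tibialis and a difference of 0.74 ± 0.25 (adjusted p = 0.129). Casq1, the calcium store protein calsequestrin, measured 0.655 and 1.27 in liver and 1.05 and 0.818 in tibialis. Asph, Rcan1 and Sln, the pump inhibitor sarcolipin, had -0.33, 0.36 and -0.24. The label of muscle thus rests on Myl1, Atp2a1, Ldb3 and the energy genes Pygm, Eno3 and Pfkm. Of these, Eno3 reached a mean of 3.52 in C2C12 myoblasts, below both tibialis samples. Aldoa was called too, but its mean reached 9.41 in Raw 264 macrophages. Ckm, Tnnc1, Myl3 and Casq1 did not separate the tissues on these arrays, and Stac3, not called, pointed the other way.

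Of 22 measured genes of oxidative phosphorylation and the citrate cycle, 1 was called lower in liver and 0 higher, with a median of -0.05. This was Atp5o, the stalk subunit of the ATP synthase, with 0.751 and 0.972 in liver and 1.93 and 2.41 in tibialis, a difference of -0.88 ± 0.21 (adjusted p = 0.0141). It was not called without liver 1 (-0.78, adjusted p = 0.107) or without tibialis 2 (-0.76, adjusted p = 0.222). Idh3g, a citrate cycle dehydrogenase subunit, measured 1.09 and 0.654 against 1.71 and 1.87, at -0.68 ± 0.20 (adjusted p = 0.0658). Subunit genes of cytochrome oxidase were not called. Cox6a1, the subunit form of liver and other non-muscle tissue, measured 3.7 and 2.07 in liver and 0.758 and 0.794 in tibialis, at 1.25 ± 0.39 (adjusted p = 0.0906). Tibialis was -1.11 from the mean of the other groups for this gene (adjusted p = 0.0326), and liver was 0.14 from it. Cox8a measured 7.02 and 1.09 in liver and 1.21 and 1.36 in tibialis, so that the tissues overlapped. Slc25a5 and Uqcr11 had -0.48 and -0.49, neither called.

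Other genes with large falls came from outside the lists. Cdca7l, a MYC-interacting nuclear protein, measured 0.735 and 0.985 in liver and 5.35 and 4.41 in tibialis, a difference of -1.84 ± 0.15 (adjusted p = 2.56e-10). No other group reached a mean above 1.33, and the difference lay between -1.97 and -1.72 without each sample in turn. Ybx3, a Y-box protein that binds DNA and RNA, measured 0.985 and 1.01 in liver and 3.36 and 3.34 in tibialis, a difference of -1.26 ± 0.20 (adjusted p = 0.000178). It was below the other groups in liver by -0.63 (adjusted p = 0.00933) and above them in tibialis by 0.63 (adjusted p = 0.019). Dusp26, a phosphatase, measured 2.07 and 0.963 in liver and 2.93 and 5.14 in tibialis, a difference of -1.10 ± 0.24 (adjusted p = 0.00824). Alpk3, a kinase of heart and skeletal muscle, measured 2.31 and 0.799 in liver and 2.77 and 4.96 in tibialis, a difference of -1.06 ± 0.29 (adjusted p = 0.0493). Both tissues were uneven for Dusp26 and Alpk3, and neither was called without liver 2, at -0.73 and -0.56, or without tibialis 2, at -0.76 and -0.71.

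Signalling and transport genes made up the rest of the 15 largest falls. Unc119b, a carrier of lipid-modified proteins, measured 1.75 and 1.19 in liver and 4.04 and 3.03 in tibialis, a difference of -0.97 ± 0.21 (adjusted p = 0.00824). Mertk, a receptor kinase for the uptake of dying cells, measured 1.00 and 0.839 in liver and 1.91 and 2.77 in tibialis, a difference of -0.90 ± 0.18 (adjusted p = 0.0025). The spot of Mertk precedes that of Atp2a1 in the deposited order. Ppip5k1, which makes inositol pyrophosphates, measured 0.726 and 0.745 in liver and 2.00 and 1.67 in tibialis, a difference of -0.82 ± 0.17 (adjusted p = 0.00599). Unc119b was not called without liver 2 or tibialis 1, Mertk without tibialis 2, or Ppip5k1 without tibialis 1. The 10 smaller named falls ran from -0.71 for Mad2l1, of the spindle checkpoint, to -0.54 for Vti1b, of vesicle fusion. Among them Tfrc, the transferrin receptor, had -0.62 ± 0.14 and Tnc, the matrix protein tenascin C of tendon, -0.58 ± 0.14. Tnc in tibialis was at 0.00 from the mean of the other groups, and liver was at -0.58 (adjusted p = 0.000235).

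Spots with near numbers had similar differences. Between spots 1 number apart the correlation of liver minus tibialis was 0.28, for 12 apart 0.27, for 6 apart 0.12 and for 100 apart -0.02, across spots, which are not independent. The sources used here do not give the layout of the filter. Among the 108 called spots, 14 had a called spot of the same direction 1 or 12 numbers away, and in 8 of these the neighbour had the larger difference. The share of all spots with such a called neighbour was not worked out, so the 14 are a description only. Mertk lies 1 and Mad2l1 12 numbers from Atp2a1, and Crebbp lies 1 number from an unnamed spot at 2.72, the largest rise of all spots, with 13.3 and 4.45 in liver and 0.545 and 0.639 in tibialis. With a running median over spot numbers removed from each array, Mertk was -0.85 (adjusted p = 0.000776), Mad2l1 -0.67 (adjusted p = 0.00829) and Crebbp 0.34 (adjusted p = 0.0784). Of the 71 named genes, 60 were called under that processing.

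Lists for shared machinery and for other cell types gave no calls between the tissues. Over all spots 1.88% were called, so lists this short would hold few or no calls at that share. An unadjusted p under 0.05 (limma) was found in 868 of the 5760 spots. None of 8 ribosomal protein genes was called, with a median of -0.03, and none of 15 genes of protein secretion and folding, with a median of 0.10 (limma; 0 and 3 at an unadjusted p under 0.05). Nearest among the latter were Xbp1, a factor of the unfolded protein response, with 1.65 and 1.35 in liver and 0.761 and 0.674 in tibialis (0.63 ± 0.19, adjusted p = 0.0682), and the coatomer gene Copa, with 9.87 and 1.15 in liver and 1.76 and 1.18 in tibialis (1.04 ± 0.36, adjusted p = 0.135). The liver samples bracketed muscle for Copa. Arf4, Sec61a1, Creb3l3 and Sec62 had 0.71, 0.44, 0.29 and 0.21.

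Of 6 Kupffer cell and macrophage markers 0 were called, 0 also at an unadjusted p under 0.05, and their summed level was 6.67 and 5.84 in liver and 6.08 and 6.88 in tibialis. Fcer1g had -0.44 ± 0.23 and Cd163, a receptor of resident macrophages, 0.23 ± 0.22. The 4 endothelial markers summed to 4.59 and 4.92 in liver and 3.93 and 3.38 in tibialis, with 0 called. Cdh5, the endothelial cadherin, was at 0.45 ± 0.17 (adjusted p = 0.184) and the 1 of these markers at an unadjusted p under 0.05. Fibroblast and matrix markers (5), adipocyte markers (5), lymphocyte markers (2), the smooth muscle marker Mylk and cell cycle genes (6) held 0 calls, with medians of 0.01, -0.19, -0.10, -0.05 and -0.03. Mki67 of dividing cells, at -0.56 ± 0.17 (adjusted p = 0.0854), and the B cell gene Cd79b, at -0.40 ± 0.26, were the farthest down among them, and Mki67 was the 1 gene at an unadjusted p under 0.05. Nerve and satellite cell markers had no measured member.

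**Figure D4:**
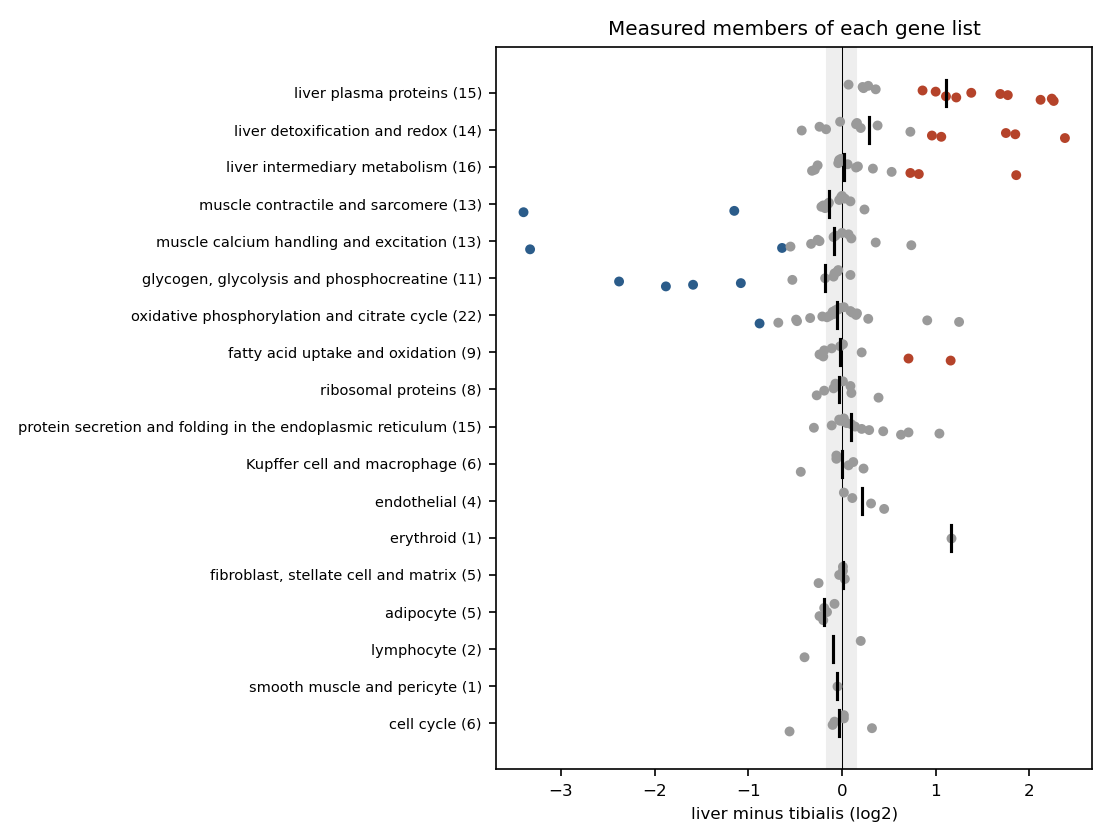
Log2 difference, liver minus tibialis, of each measured member of each gene list, with the number measured in brackets; red points were called higher, blue points lower and grey points neither, black bars are list medians, and the grey band spans the middle 50% of all spots (-0.16 to 0.15). Plasma proteins have a median of 1.11, while the medians of the muscle lists lie between -0.18 and -0.05 with a few members far to the left.

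Each tissue was also set against the equally weighted mean of 11 other groups, to place the differences on one side or the other. Liver differed from that mean in 189 spots higher (3.28%) and 95 lower (1.65%), and tibialis in 74 higher (1.28%) and 37 lower (0.642%). With each array scaled to a common median the counts were 38 and 5 in liver and 10 and 1 in tibialis, and with cyclic loess 62 and 3 and 24 and 7. These comparisons share the tissue samples with the first and the other groups with each other, so they are given side by side and not as separate support. For Mgst1, Apoc1, Rbp4, Selenop and Scp2 liver stood at 2.25, 2.39, 2.14, 2.11 and 1.77 and tibialis at -0.13, 0.13, -0.10, -0.01 and -0.10. For Atp2a1, Myl1, Pygm, Cdca7l and Eno3 tibialis stood at 3.25, 2.85, 2.16, 1.84 and 1.59 and liver at -0.07, -0.55, 0.28, 0.00 and 0.00. Most of these differences thus had 1 tissue away from the other groups and the other near them. Aldoa, with a larger fall than Pygm, did not. Its liver was at -1.43 (adjusted p = 0.000807) and its tibialis at 0.95 (adjusted p = 0.0556).

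Some genes did not follow that form. Cyb5a and Enpp5 were at 1.20 in liver (adjusted p = 0.00971 and 0.0108) and at -0.65 and -0.56 in tibialis, neither of which was called. Chst11, Clip3, Cachd1, Idh1, Rab5c and Marchf10 were called between the tissues, but neither tissue was called against the other groups. Aldoa, Vti1b, Tnc, Nhlrc2 and Ppip5k1, higher in tibialis, were called lower in liver against the other groups, at -1.43, -0.46, -0.58, -0.42 and -0.44. For these genes tibialis was at 0.95, 0.08, 0.00, 0.16 and 0.38 and was not called. The median ribosomal protein gene was at -0.65 in liver and -0.56 in tibialis, with 0 of 8 called in liver and 1 of 8 called lower in tibialis.

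**Figure D5:**
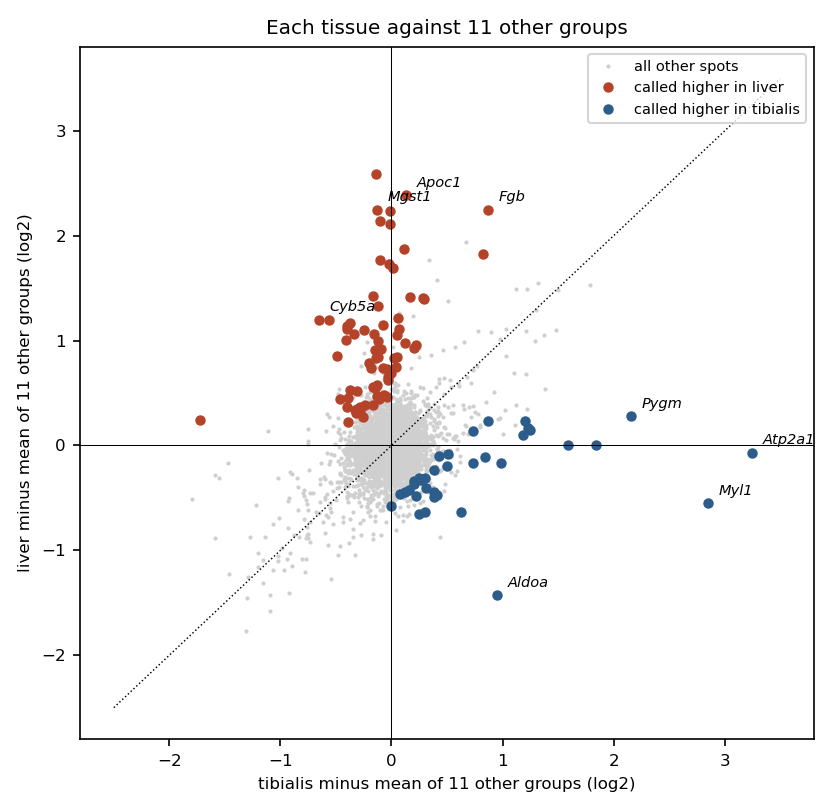
Log2 difference of each spot from the equally weighted mean of 11 other groups in tibialis (horizontal axis) and in liver (vertical axis); red spots were called higher in liver than in tibialis, blue spots higher in tibialis, grey spots neither, and the dotted line marks equal values. Red spots such as Apoc1 (0.13, 2.39) lie mostly along the vertical axis, with Fgb (0.87, 2.25) raised in both. Some blue spots, such as Atp2a1 (3.25, -0.07), lie along the horizontal axis and others below it. Of the 36 blue spots, 19 were called higher in tibialis than the other groups and 13 were called lower in liver.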

How the data were processed

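RNA of 2 liver and 2 tibialis samples was analysed beside 36 other arrays, each a filter hybridized with 1 labelled cDNA. Per the labels, spots were quantified with Imagene software, and the deposited values are linear spot intensities; the sources used here do not give the software version, nor whether background was corrected or arrays were scaled. The 3 arrays of embryonic stem cells without LIF hold decimals and a wider range of intensities than the other 37, and stayed in the fit but out of the mean of other groups.

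Quantile normalization was applied to the deposited intensities of all 40 arrays. An offset of 36370, the 10th percentile of the normalized intensities, was added to these normalized values before taking log2. The 2 samples of 3T3-L1 were averaged, and 39 units in 14 groups entered 1 fit with 25 residual degrees of freedom in limma 3.58.1 (lmFit, eBayes; R 4.3.3). P-values are two-sided and adjusted by Benjamini-Hochberg over 5760 spots, and spots were called under 0.05. The number of arrays limits the precision. The test was run on simulated data with known differences. The simulation drew spots independently and gave all groups the same spread at a spot. It therefore cannot show how the test behaves with the wider liver spread or the related neighbouring spots seen here. Figures used matplotlib 3.10.9 in Python 3.11.15.

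Of the spots, 3420 had 1 gene in the platform annotation, 98 several and 2242 none. Symbols were updated through GRCm38.p6, used for names only; 129 genes had more than 1 spot. Named genes are called spots with 1 current symbol, clone names left out, whose liver and tibialis values do not overlap. The 15 largest each way are given by sample. By rule, at most 6 measured members per list, those of lowest p, were added. Other list members, among them Proc, Ttr, Cyp2e1, Mt1, Fdps, Kmo, Myl3 and Casq1, are given outside this rule. Promoters come from the RefSeq table of GRCm38.p6. Members, lists and tests were chosen with earlier results of these data known.

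Replicate numbers were not used as pairs. Alternatives were median scaling, cyclic loess, subtraction of the 5th percentile, 4 times the offset, a floor, bright spots, other samples, variance models, array weights, averaged spots, removal of a local trend, a replicate block and leaving out each sample; the crossed block was added after seeing the data.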

Additional observations from a re-analysis of the deposited data

How the results depend on the processing

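No named gene or list member changed sign while called. The counts of called spots, 72 higher and 36 lower in liver, moved as follows, and the cause was not tested. Median scaling gave 11 and 7, and cyclic loess 21 and 8. Subtraction of a background gave 55 lower, removal of a local trend 67 lower, and bright spots only, with fewer spots tested, 41 higher. The 4 compared arrays alone, with fewer samples, gave 0 and 2. Leaving out each of the 4 samples gave 27 to 116 higher and 20 to 83 lower. Against the 11 other groups, liver (189 higher and 95 lower) went to 38 and 5 with median scaling, 62 and 3 with cyclic loess, 90 and 177 with background subtraction, 60 and 3 with array weights, 331 and 222 without the local trend, and 96 higher in bright spots only. Without each sample in turn it ranged from 122 to 180 higher and from 38 to 83 lower. Tibialis (74 and 37) went to 10 and 1, 24 and 7, and 29 and 99 under the first 3 of these, to 273 and 315 with array weights and to 12 lower with 4 times the offset. Without each sample it ranged from 21 to 85 higher and from 0 to 42 lower. A floor, arrays of stem cells without LIF left out, another variance model and averaged spots kept the counts within 1.5 times. The replicate numbers share only a number: the differences within the liver pair and within the tibialis pair correlated at -0.11 across spots, and a replicate block in the 4 arrays gave 0 higher and 6 lower, Myl1, Atp2a1, Aldoa, Pygm, Cdca7l and Eno3. With the numbers crossed, an alternative chosen after seeing the data, the block gave 0 and 4. Intensities were not separated from background by any deposited value, so how far dim spots can fall is unknown.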

Other observations

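Of the 108 called spots, 36 carry no single named gene: 32 have no gene in the annotation used here, 2 have several and 2 bear clone names. An unnamed spot, number 4247 in the deposited order, measured 14.8 and 3.58 array medians in liver and 1.08 and 0.984 in tibialis, a difference of 2.24 ± 0.28 (log2), which is the size seen for Rbp4. Spot 2983 measured 10.6 and 4.19 in liver and 1.19 and 1.25 in tibialis. Against the mean of the 11 other groups its liver was at 0.24 (adjusted p = 0.753) and its tibialis at -1.72 (adjusted p = 0.00163). Among spots higher in tibialis, spot 2857 measured 3.82 and 7.2 in liver and 10.5 and 10.9 in tibialis, and spot 2508 measured 1.13 and 1.2 against 2.63 and 2.77. Against the other groups these were lower in liver, at -0.63 (adjusted p = 0.00203) and -0.49 (adjusted p = 0.0151), and tibialis was not called. These spots were singled out after their values were seen, and what they hold is not known here.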
